A study of Mus musculus with 18 samples.

Results

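Csrnp3, Car4, Car2, Gna14, Dnah8, Dpp4, Srgn, Hal, Kbtbd11 and Ephx2 are 10 of the 17903 mouse genes measured on 18 Affymetrix arrays, and they were selected on 1 contrast: a large difference between the OSK Tcf3 ko iPS clones and the OSK Tcf3 wt clone. They do not form a pathway. They are 5 enzymes, a nuclear protein, a G protein subunit, a kelch-repeat protein, a granule proteoglycan and a dynein heavy chain. Because that contrast chose them, their values in it are a description and were not tested. The question put to the other arrays was whether the same genes differed in OCK Tcf3 ko clones, after Tcf3 siRNA and in reprogramming cultures without Tcf3.

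Tcf3, whose gene is listed as Tcf7l1, is a DNA-binding protein of the Tcf/Lef family, through which Wnt signals reach their target genes. In mouse pluripotent cells it is known mainly as a repressor, and beta-catenin, which accumulates when Wnt signalling is on, relieves that repression. Induced pluripotent stem (iPS) cells are made by forcing a set of reprogramming factors on somatic cells, and a partial iPS clone is a line that stopped on the way.

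OSK and OCK name the factor sets, in common usage Oct4, Sox2 and Klf4, and Oct4, c-Myc and Klf4. Every array carried RNA of cells given 1 of those sets. Group 1 was 1 OSK wt iPS clone. Group 2 was 2 OSK Tcf3 ko clones, and group 3 was 2 OCK Tcf3 ko clones, each pair from different cell lines. An OCK wt iPS clone was not analysed here, so factor set, clone and genotype cannot be told apart in the OCK ko clones. The partial iPS clone was 1 OCK clone of Tcf3 wt genotype, analysed on day 2 after control siRNA (siCtrl, 1 array) or either of 2 independent siRNAs against Tcf3 (siTcf3-A and siTcf3-B, 1 array each). The OCK reprogramming cultures, mixtures of cells at different stages, gave 1 Tcf3 wt and 1 Tcf3 ko array on each of days 11, 15, 19, 22 and 26. Separate cultures are not stated in the labels for the clones or the siRNA arrays. The p-values among these arrays rest on the spread between paired ko clones and between the 2 siRNAs. No spread between replicate cultures of a clone or siRNA enters them. In the reprogramming cultures the days stand in for replicates, so no spread between replicate cultures enters those p-values either. All levels are log2 signals with a floor at 5.64, the log2 of 50, so that a floored value says only that the true level was no higher. In bulk RNA, fewer cells that express a gene and less of its RNA per cell cannot be told apart.

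The targeted gene was lower wherever Tcf3 was removed. Tcf7l1 read 10.68 in the OSK wt clone, 9.49 and 9.37 in the OSK ko clones, 9.45 and 9.56 in the OCK ko clones, 9.93 with siCtrl, and 8.80 and 8.77 with siTcf3-A and siTcf3-B. The signal in the ko clones stayed far above the floor, and the position of the probes relative to the deletion is not known here. Pluripotency genes were high on all 5 iPS arrays, with a summed linear signal of 10 markers of 61923 in OSK wt, 63570 to 66233 in OSK ko, 73606 to 76198 in OCK ko and 10979 to 11679 in the partial clone. The partial clone's sum was uneven over the list. With siCtrl, Pou5f1 read 12.76, above every iPS array, whereas Nanog read 5.78 and Zfp42 and Esrrb the floor value. The other listed markers there lay between 6.80 (Tfcp2l1) and 10.58 (Dppa5a). Between 12102 and 12499 genes were above the floor on each array.

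The 10 genes have 19 probe sets. Each gene is represented by its brightest probe set on average, and 5 of the genes have only 1. Ranked by the size of the OSK ko minus wt difference, the members lie between rank 2 (Car4) and rank 60 (Ephx2), with 50 other genes in between or above; 6 members were higher in the ko clones and 4 lower. At the edge of the choice, Epp13 (rank 59, not a member) differed by 1.55, Ephx2 by 1.55 and Ttn (rank 61, not a member) by 1.54. The largest difference, 3.93 for 1700097N02Rik, also lay outside the set. In that contrast limma called 0.687% of 12670 tested genes, and nothing is read from that share about the members.

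Promoter sequence was at hand for 7 of the 10 genes, from RefSeq (build GRCm38.p6, 250 bases before to 50 after the start site, 9 windows in all). Tcf/Lef proteins bind motifs built on CTTTG, so each window was searched on both strands for 4 forms of 7 letters. One was CTTTGAA, another form was CTTTGAT, a further form was CTTTGTA and the last form was CTTTGTT; they cannot overlap on the same strand. Of the 7 genes, 2 had a match, Dnah8 with 3 and Hal with 1. Counted by window and not by gene, 16.9% of 32851 promoters had at least 1 and 0.161% had 3 or more. The windows of Dnah8 and Hal are shown for their matches, in capitals, and those of Car4 and Gna14 as the lower members without one. Each is printed 5′ to 3′ on the strand of the gene up to 20 bases past the start site: Dnah8 at chr17:30626686-30626955, Hal at chr10:93488518-93488787, Car4 at chr11:84957504-84957773 and Gna14 at chr19:16435417-16435686, all on the + strand.
Dnah8: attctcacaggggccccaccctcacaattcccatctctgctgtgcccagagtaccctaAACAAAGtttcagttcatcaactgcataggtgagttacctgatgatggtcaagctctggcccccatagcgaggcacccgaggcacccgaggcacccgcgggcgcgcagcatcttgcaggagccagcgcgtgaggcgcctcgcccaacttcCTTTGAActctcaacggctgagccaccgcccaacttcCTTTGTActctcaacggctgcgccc
Hal: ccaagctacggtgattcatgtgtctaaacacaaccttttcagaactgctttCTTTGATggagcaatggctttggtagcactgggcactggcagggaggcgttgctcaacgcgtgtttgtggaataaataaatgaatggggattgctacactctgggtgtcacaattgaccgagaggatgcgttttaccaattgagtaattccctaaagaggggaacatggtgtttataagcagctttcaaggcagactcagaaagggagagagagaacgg
Car4: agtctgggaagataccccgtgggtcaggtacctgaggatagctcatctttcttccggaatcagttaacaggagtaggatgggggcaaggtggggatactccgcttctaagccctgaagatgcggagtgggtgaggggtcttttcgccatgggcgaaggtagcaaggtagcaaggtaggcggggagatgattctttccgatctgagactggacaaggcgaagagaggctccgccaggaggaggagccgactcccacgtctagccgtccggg
Gna14: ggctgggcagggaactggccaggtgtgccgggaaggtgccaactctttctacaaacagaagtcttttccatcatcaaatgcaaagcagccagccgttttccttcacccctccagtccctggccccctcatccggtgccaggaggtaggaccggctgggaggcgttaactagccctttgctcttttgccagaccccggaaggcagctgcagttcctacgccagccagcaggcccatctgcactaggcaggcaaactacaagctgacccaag
The Dnah8 matches begin at position -192 (CTTTGTT, read on the opposite strand), at -42 (CTTTGAA) and at -5 (CTTTGTA) relative to the start site, and the Hal match (CTTTGAT) begins at -199. The Dnah8 matches at -42 and -5 lie in near-identical stretches of sequence and so are not independent of each other. The windows of Csrnp3, Dpp4 and Srgn held none of the 4 forms either. A match is a run of letters and not a measured site, and the arrays carry no data on binding.

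**Figure D1:**
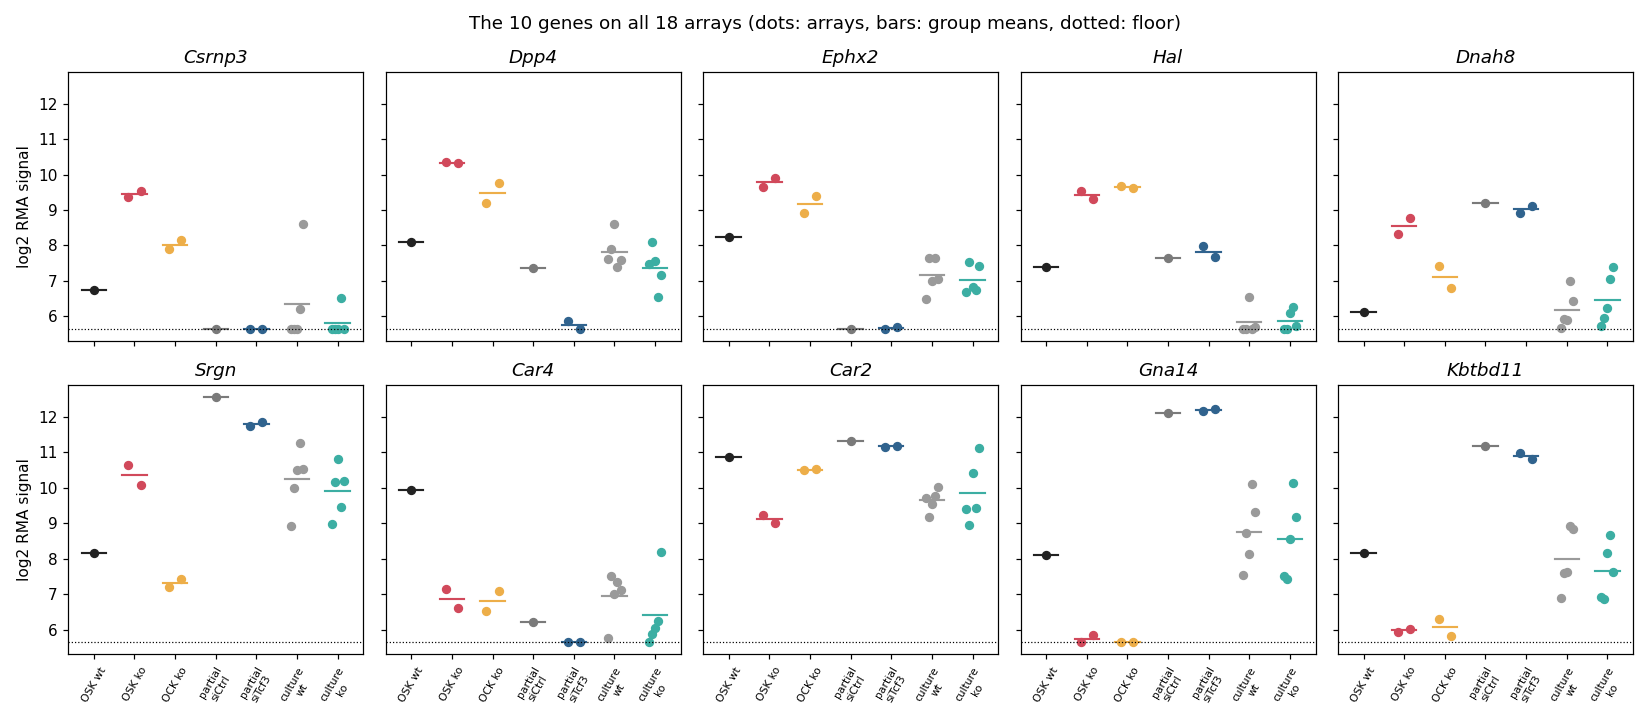
Log2 RMA signal (vertical axis) of the 10 genes in the 7 groups of arrays (horizontal axis); dots are arrays, bars are group means and the dotted line is the floor at 5.64. Csrnp3, Dpp4 and Ephx2 were highest in the OSK ko clones, Gna14 and Kbtbd11 were highest in the partial clone and at or near the floor in all 4 ko iPS clones, and Car4 was highest in the single OSK wt array at 9.94.

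The carbonic anhydrases, which interconvert carbon dioxide and bicarbonate, gave 2 members that were lower in the OSK ko clones, and only Car4 was as low in the OCK ko clones. Car4, an enzyme anchored on the outer face of the cell membrane, read 9.94 in OSK wt, 7.13 and 6.61 in OSK ko, and 6.52 and 7.08 in OCK ko. Both pairs of ko clones covered nearly the same range, far below the wt array. That wt array was the highest of all 18, so the size of the Car4 difference, -3.07 (8.41-fold lower) for OSK ko and -3.14 for OCK ko, rests on 1 array that both comparisons share.

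In the partial clone Car4 was 6.21 with siCtrl and at the floor with both Tcf3 siRNAs. The difference of -0.57 (SE 0.29, adjusted p = 0.482), a minimum size because of the floor, did not pass the test. In the wt cultures Car4 was 5.77, 7.50, 7.02, 7.34 and 7.13 on days 11 to 26, and in the ko cultures 5.64, 5.88, 6.05, 6.25 and 8.18. The ko culture was lower on 4 of 5 days, with differences of -1.62, -0.97 and -1.09 on days 15, 19 and 22, and higher on day 26. From the highest group mean down, the order was OSK wt, wt cultures, OSK ko, OCK ko, ko cultures and the partial clone; from the wt cultures down, neighbouring groups overlapped.

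Car2, the abundant cytosolic enzyme of the family, read 10.88 in OSK wt, 9.24 and 9.01 in OSK ko and 10.50 and 10.52 in OCK ko. The OCK ko clones stood near the wt array, with a difference of -0.38 and a gap of 0.025 between the clones, whereas the OSK ko clones differed by -1.76. In the partial clone Car2 was 11.33 with siCtrl and 11.16 and 11.18 with siTcf3-A and siTcf3-B. The siRNA difference was -0.15 (SE 0.127, adjusted p = 0.670). Car2 was never at the floor, and its highest levels were in the partial clone and its lowest in a culture.
The wt cultures read 9.73, 9.19, 9.56, 9.78 and 10.03 and the ko cultures 9.40, 8.96, 10.43, 9.44 and 11.12 from day 11 to day 26. The ko culture was higher on days 19 and 26 and lower on the other days, and the 2 ranges overlapped. The OSK ko clones lay inside the range of the ko cultures.

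Of the other carbonic anhydrases listed, 13 of 14 were on the array, 9 could be tested in OSK ko against wt, and 0 passed. Car6, a secreted form, had the lowest adjusted p, at 5.88 in OSK wt and 7.38 and 7.39 in OSK ko, a difference of 1.50 (SE 0.242, adjusted p = 0.0643), opposite in sign to Car4 and Car2. Car3, a cytosolic form of muscle and fat, was -0.77 (adjusted p = 0.0770), with both ko clones at the floor.

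The 3 other enzymes were all higher in the OSK ko clones, and all 3 were also above the OSK wt array in both OCK ko clones. Dpp4, a surface peptidase that clips pairs of residues from the start of peptides, read 8.09 in OSK wt, 10.36 and 10.31 in OSK ko, and 9.20 and 9.77 in OCK ko. The OCK clones stood between wt and OSK ko, at 62.1% of the OSK difference of 2.24. The gap between the OCK clones, 0.57, was larger than that between the OSK clones, 0.052. A dimmer Dpp4 probe set showed the same order at lower size. It read 5.80 in wt, 7.03 and 7.13 in OSK ko and 5.96 and 6.32 in OCK ko. Its OCK ko difference was 0.33 against 1.28 for OSK ko, a smaller share than on the bright probe set.

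After Tcf3 siRNA, Dpp4 differed the other way. It read 7.35 with siCtrl, 5.87 with siTcf3-A and the floor value with siTcf3-B, so both siRNA arrays were below the control, with a mean difference of -1.59 (at least 3.02-fold lower, since 1 array was at the floor; SE 0.239). The adjusted p was 0.0926 and the unadjusted p 0.00053, and Dpp4 ranked 19th among the genes by size of the siRNA difference as measured. The call turned on which arrays gave the spread: without OCK ko clone 1 or clone 2, Dpp4 passed (adjusted p = 0.0129 and 0.0126), and in a fit of the 3 siRNA arrays alone it passed too (0.00382). Those settings called 498, 519 and 412 genes against 14. The dimmer probe set read 5.98 with siCtrl and 6.10 and 5.93 with the siRNAs (adjusted p = 0.964) and so did not show the difference.

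Dpp4 in the wt cultures was 7.60, 7.89, 8.60, 7.39 and 7.57 and in the ko cultures 7.46, 8.09, 7.57, 6.54 and 7.17. It was lower in the ko culture on 4 of 5 days, with a mean difference of -0.44 (SE 0.18, adjusted p = 0.9998, unadjusted p = 0.043), which did not pass. The direction was thus up in the 4 ko iPS clones and down, without passing the test, in the siRNA arrays and the ko cultures; the difference between these settings was not tested.

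Ephx2, the soluble epoxide hydrolase, which turns fatty acid epoxides into diols, read 8.23 in OSK wt, 9.66 and 9.90 in OSK ko, and 8.92 and 9.39 in OCK ko. The OCK clones lay between wt and OSK ko at 59.7% of the OSK difference, 1.55. The partial clone had next to none, with floor values in siCtrl and siTcf3-A and 5.70 in siTcf3-B, and hence no room to show a decrease (0.03, adjusted p = 0.978). In the wt cultures Ephx2 was 6.50, 7.63, 7.0, 7.63 and 7.04, and in the ko cultures 6.69, 7.53, 6.82, 6.73 and 7.42. Both culture groups overlapped and lay below every iPS array.

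Hal, histidine ammonia-lyase, which starts histidine breakdown, was about as high in the OCK ko as in the OSK ko clones. It read 7.39 in OSK wt, 9.55 and 9.30 in OSK ko, and 9.67 and 9.62 in OCK ko. The OCK ko clones were slightly above both OSK ko clones, at 111% of the OSK difference, and 0.05 apart. With siCtrl Hal was 7.63, and with siTcf3-A and siTcf3-B it was 7.97 and 7.67, a difference of 0.19 (SE 0.169, adjusted p = 0.699). Both siRNA arrays were above the control, by far less than the ko clones were above wt.
In the cultures Hal was at or near the floor: the wt arrays read the floor value except for 6.53 on day 19 and 5.68 on day 26, and the ko arrays except for 6.08, 6.26 and 5.73 on days 19, 22 and 26. Of the other listed genes of histidine breakdown, 1 could be tested in each comparison and 0 passed.

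Csrnp3, of a small family of cysteine- and serine-rich nuclear proteins that activate transcription, had the largest increase among the members. It read 6.75 in OSK wt, 9.36 and 9.54 in OSK ko, and 7.89 and 8.15 in OCK ko. The OSK ko difference was 2.70 (6.52-fold) and the OCK ko clones lay between, at 47.2% of it; the 2 pairs of ko clones did not overlap. The partial clone was at the floor on all 3 arrays, so the siRNA comparison could not be made for this gene.
Csrnp3 was also at the floor in both cultures on days 11, 15 and 19. On day 22 it was 6.21 in the wt and 6.51 in the ko culture, and on day 26 it was 8.61 in the wt culture and at the floor in the ko culture. Whether that single high wt array would recur is unknown, since each day has 1 array per genotype. Its relative Csrnp2 was 8.18 in OSK wt, 8.97 and 8.91 in OSK ko and 9.54 and 9.42 in OCK ko, an OSK difference of 0.76 (adjusted p = 0.0711).

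Gna14 and Kbtbd11 were the members whose signal moved together most closely, low in every ko iPS clone and highest in the partial clone. Gna14, an alpha subunit of the Gq class that links surface receptors to phospholipase C, read 8.10 in OSK wt, the floor value and 5.85 in the OSK ko clones, and the floor value in both OCK ko clones. The OCK ko clones were thus at least 5.48-fold lower than the wt array. The OSK ko clones differed from the wt array by -2.35, a minimum size since 1 of them was at the floor. A second Gna14 probe set read 6.63 in OSK wt and the floor value in all 4 ko clones.
In the partial clone Gna14 was higher than in any other group, at 12.12 with siCtrl and 12.17 and 12.22 with the Tcf3 siRNAs. The siRNA difference was 0.08 (SE 0.138, adjusted p = 0.860), with both siRNA arrays slightly above the control. In the wt cultures Gna14 was 7.54, 8.72, 8.12, 10.10 and 9.33, and in the ko cultures 7.51, 7.44, 8.56, 10.13 and 9.19. The groups overlapped (ko minus wt -0.20, SE 0.23) and both were well above the ko iPS clones.

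Kbtbd11, a protein with kelch repeats and a BTB domain, read 8.17 in OSK wt, 5.93 and 6.02 in OSK ko, and 6.30 and 5.82 in OCK ko. The 4 ko clones overlapped and all lay about as far below wt, -2.19 for OSK ko and -2.11 for OCK ko. With siCtrl it was 11.19 and with siTcf3-A and siTcf3-B 10.98 and 10.82, a difference of -0.28 (SE 0.206, adjusted p = 0.629). Both siRNA arrays were below the control, by a small part of the ko clone difference.
Kbtbd11 read 6.90, 7.61, 7.63, 8.94 and 8.84 in the wt cultures and 6.92, 6.87, 8.16, 8.68 and 7.61 in the ko cultures. Again the genotypes overlapped (-0.33, SE 0.24; -0.11 without day 26). A dim second Kbtbd11 probe set went the other way in the OSK clones, from the floor value in wt to 6.02 and 5.87 in ko, so the decrease rests on the bright probe set.

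The neural transcription factor genes Sox1 and Pax6, singled out after their values were seen, had a like order over the clones. Sox1 read 8.23 in OSK wt, 6.43 and 6.48 in OSK ko, the floor value and 6.17 in OCK ko, 10.62 with siCtrl and 10.54 and 10.55 with the Tcf3 siRNAs. Pax6 read 7.09 in OSK wt, 6.09 in both OSK ko clones, the floor value and 5.94 in OCK ko, 8.07 with siCtrl and 8.25 and 8.33 with the siRNAs. Both were thus lower in the 4 ko iPS clones than in OSK wt and highest in the partial clone, and their part in the Gna14 and Kbtbd11 differences was not tested. The other listed neural markers did not share that order. Tubb3 read 8.57 in OSK wt, 9.07 and 9.03 in OSK ko and 7.67 with siCtrl. Ina read 9.36 in OSK wt and 6.24 with siCtrl, and Dcx and Elavl4 were at or near the floor on all clone arrays.

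Over the 18 arrays the Pearson correlation of Gna14 and Kbtbd11 was 0.974, the highest of any gene with Kbtbd11 and of any gene with Gna14 among 12925 genes compared. The arrays share clones and days and include the OSK arrays on which both genes were chosen, so this is a description. Next were Grik5 for Gna14 (0.959) and Grm4 for Kbtbd11 (0.947), both glutamate receptor genes. Among the Gq class relatives, Gnaq differed by 0.08 and Gna11 by -0.02 between OSK ko and wt, and neither passed (adjusted p = 0.913 and 0.980).

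**Figure D2:**
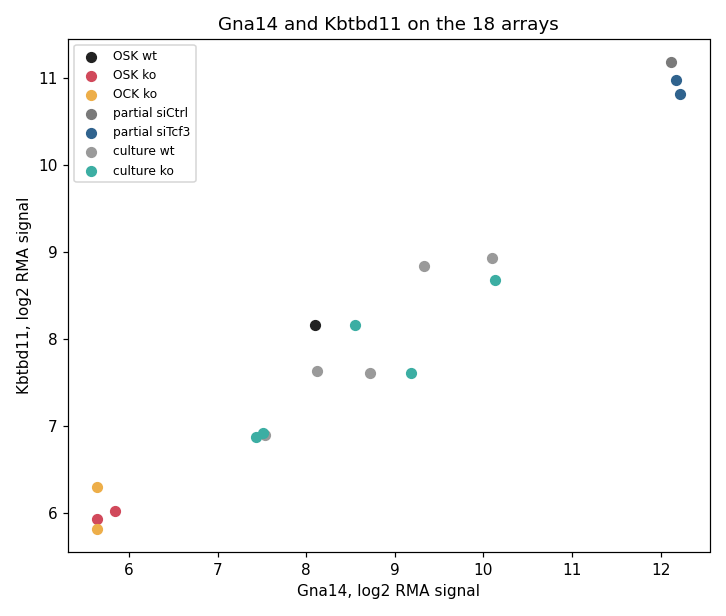
Gna14 (horizontal axis) against Kbtbd11 (vertical axis), both as log2 RMA signal, 1 point per array, coloured by group. The 4 ko iPS clones sit at the low end of both genes, the OSK wt clone at 8.10 and 8.17 lies among the cultures, and the 3 partial clone arrays sit at the high end.

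Srgn and Dnah8 were higher in the OSK ko clones, and both had high signal in the partial clone. Srgn encodes serglycin, the proteoglycan that packs proteases into secretory granules of blood cells. It read 8.17 in OSK wt, 10.66 and 10.08 in OSK ko, and 7.21 and 7.43 in OCK ko. The OCK ko clones were both below the wt array, with a mean difference of -0.85, and did not overlap the OSK ko clones, which were above it by 2.19. Srgn was the only member for which the OCK ko clones lay on the other side of the OSK wt array.
In the partial clone Srgn was 12.55 with siCtrl and 11.75 and 11.87 with the Tcf3 siRNAs. Both siRNA arrays were lower, with a mean difference of -0.74 (SE 0.243, adjusted p = 0.298, unadjusted p = 0.0219); in the fit of the 3 siRNA arrays alone the adjusted p was 0.0256. The wt cultures read 8.93, 10.01, 10.51, 11.27 and 10.53 and the ko cultures 8.99, 10.17, 10.80, 9.46 and 10.19. The genotypes overlapped, with the widest gap on day 22, when ko minus wt was -1.82.
Of 9 genes for granule proteins that serglycin is known to hold, all were on the array, 2 could be tested in OSK ko against wt, and 0 passed. Among 8 markers of macrophages and blood, Ptprc, Lyz2, C1qb and Tyrobp were at the floor on all 5 iPS arrays, and Csf1r, Cd14 and Fcer1g were between the floor and 6.16. Cd68, a lysosomal protein, was 8.27 in OSK wt, 7.45 and 7.22 in OSK ko and 7.36 and 7.46 in OCK ko. The summed signal of the list was 685 in OSK wt, 509 to 543 in OSK ko and 521 to 555 in OCK ko. The part of these markers in the Srgn difference was not tested.

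Dnah8, a heavy chain of the axonemal dynein that moves cilia and sperm tails, read 6.12 in OSK wt, 8.32 and 8.78 in OSK ko, and 7.40 and 6.79 in OCK ko. The OCK clones lay between wt and OSK ko, at 40.2% of the OSK difference, with a gap of 0.62 between them. In the partial clone it was 9.20 with siCtrl and 8.92 and 9.10 with siTcf3-A and siTcf3-B, a difference of -0.18 (SE 0.295, adjusted p = 0.850). Both siRNA arrays were thus a little below the control and all 3 were above every ko iPS clone.
In the wt cultures Dnah8 was 5.68, 5.92, 5.88, 7.0 and 6.44, and in the ko cultures 5.72, 5.94, 6.23, 7.04 and 7.40. It was the only member higher in the ko culture on all 5 days, by 0.01 to 0.96, with a mean of 0.28 (SE 0.147) that did not pass and that was 0.11 without day 26. Of 14 other axonemal heavy chains listed, 9 were on the array, 4 could be tested in OSK ko against wt, and 0 passed.

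Side by side, the OCK ko clones reached the OSK ko level for Car4, Kbtbd11 and Hal. For Gna14 both OCK ko clones and 1 of the 2 OSK ko clones were at the floor, so their levels below it could differ. The OCK ko clones stood between wt and OSK ko for Csrnp3, Dnah8, Dpp4 and Ephx2. They were near wt for Car2 and beyond wt for Srgn. These comparisons have the OSK wt array in common, so a high or low value of that array enters both. No test was made of them. Over 10808 genes above the floor, the median gap was 0.0713 between the OSK ko clones and 0.179 between the OCK ko clones.

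After Tcf3 siRNA, limma called 0 of the 9 members that could be tested, against 0.111% of 12636 genes, and 2 members (Dpp4 and Srgn) had an unadjusted p under 0.05, as had 1602 genes. Among the 5 tested members that were higher in OSK ko, 2 were higher and 3 lower after siRNA, with a median difference of -0.18. Among the 4 that were lower in OSK ko, 1 was higher and 3 lower, with a median of -0.22, and over all genes tested the median was -0.0022. The median size of the siRNA difference over all genes, signs ignored, was 0.147. That is a measure of single genes, and with 5 and 4 members nothing is read from the signed medians. The siRNA lowered Tcf7l1 itself, with a difference of -1.15 (SE 0.114, adjusted p = 0.0495). That call was marginal. The adjusted p was 0.109 with the clone number as a replicate block, 0.0564 with the crossed pairing and 0.138 with the stricter filter. It was 0.0583 with quantile normalization and 0.0621 with median centring, but 0.0314 with probe set means and 0.0315 with the plain prior. Leaving out either siTcf3 array or either OSK ko clone lost the call. Leaving out either OCK ko clone, or fitting the siRNA arrays alone, kept it. A second Tcf7l1 probe set fell further, from 9.86 with siCtrl to 7.79 and 7.56 with siTcf3-A and siTcf3-B. The difference itself lay between -1.66 and -1.08 in the alternatives run.

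**Figure D3:**
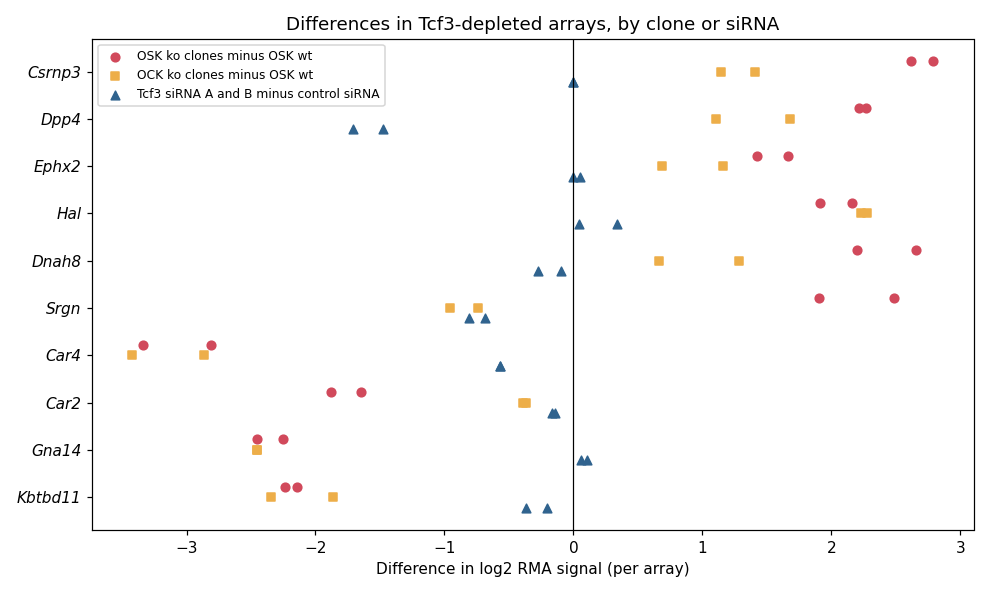
Difference in log2 RMA signal (horizontal axis) for each of the 10 genes (vertical axis): each OSK ko clone minus OSK wt (circles), each OCK ko clone minus OSK wt (squares) and each Tcf3 siRNA minus control siRNA (triangles), 1 mark per array. The OSK and OCK marks lie close together for Car4, Gna14, Kbtbd11 and Hal and on opposite sides of 0 for Srgn. For Gna14 the ko clones are at or near the floor, which limits how far apart these marks can lie. The siRNA marks lie near 0 except for Dpp4 at -1.59 on average, Srgn at -0.74 and Car4 at -0.57. For Car4 both siTcf3 arrays are at the floor.

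In the cultures, limma with day as a block called 0 of the 10 members for ko against wt, and 0% of 13428 genes; 1 member (Dpp4) and 452 genes had an unadjusted p under 0.05. Tcf7l1 was lower in the ko culture on every day but missed the threshold as well (-0.58, SE 0.101, adjusted p = 0.9998). The adjusted p was 0.9998 for each of the 10 members.

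Over the days of culture, 4 members passed the test, all upward. Dnah8 rose by 0.09 log2 units per day (SE 0.018, adjusted p = 0.00776), Kbtbd11 by 0.11 (SE 0.029, 0.0185), Gna14 by 0.15 (SE 0.038, 0.0198) and Car4 by 0.11 (SE 0.032, 0.0301), each as the mean of the wt and ko slopes. These 4 of 10 compare with 36.6% of all genes tested that were called in either direction, 18% higher and 18.7% lower. The share of members is near the either-direction share and above the share called higher. With 10 members nothing is read from that. Csrnp3, Srgn and Car2 had slopes of 0.10, 0.09 and 0.07 with adjusted p of 0.0588, 0.0731 and 0.0741, and Dpp4, Ephx2 and Hal were between -0.03 and 0.02.
These calls rest on how the days are used. Without day 11 no member passed, and 0 genes passed at all. A line through the 5 day means called 0 members and 351 genes, and limma's plain prior called 1 member, Dnah8. Without day 15, 2 members passed; Car4 was lost without day 19 or day 26, Car2 passed without day 22 (adjusted p = 0.0386) and Srgn without day 26 (0.0447). Slopes also moved: Srgn was 0.02 without day 11, Car2 0.03 and Csrnp3 0.05 without day 26, and Kbtbd11 0.17 without day 26.

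**Figure D4:**
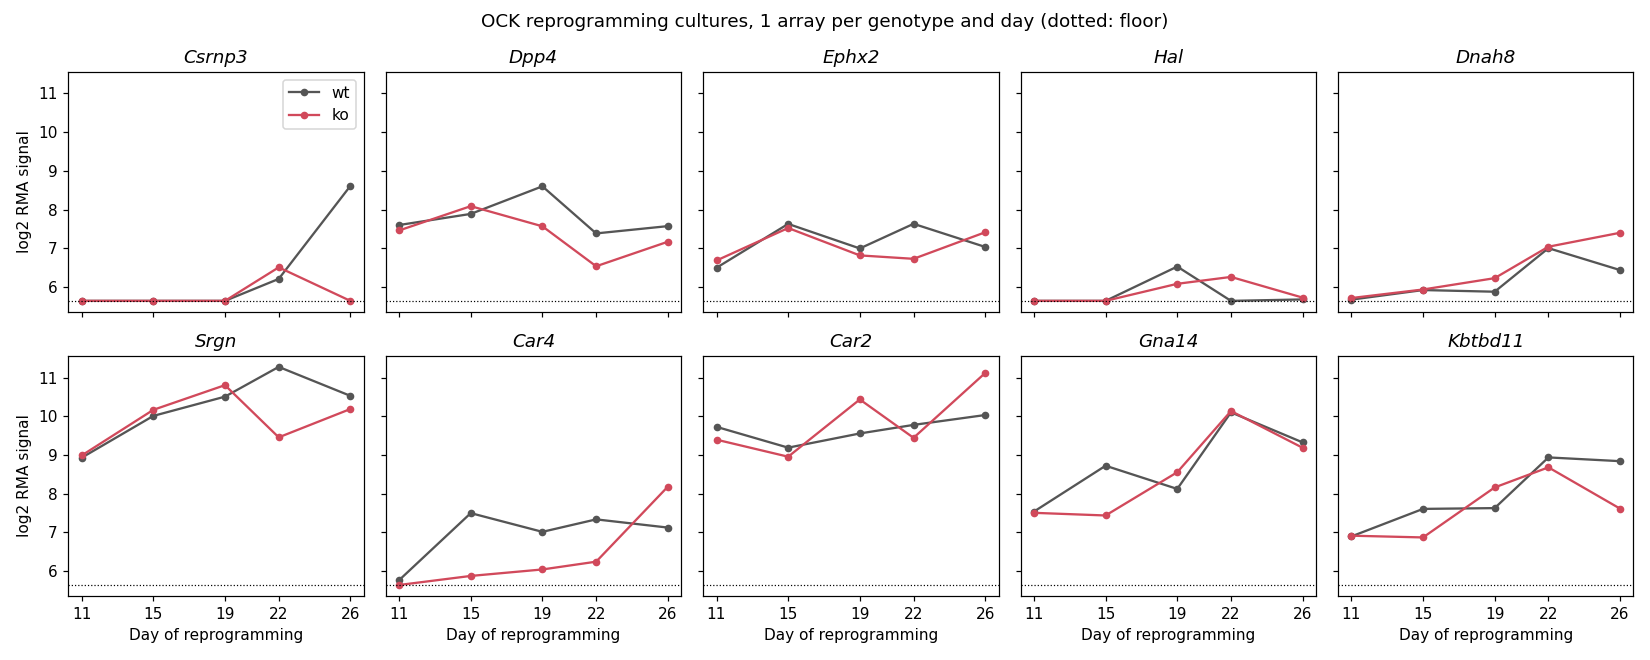
Log2 RMA signal (vertical axis) of the 10 genes against the day of OCK reprogramming (horizontal axis) in wt and Tcf3 ko cultures, 1 array per point; the dotted line is the floor at 5.64. Gna14 and Kbtbd11 were higher on day 22 than on day 11 in both genotypes, Csrnp3 left the floor on day 22, and Car4 was lower in the ko culture from day 11 to day 22 and higher on day 26.

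The relatives of the members, 64 genes listed by family with 57 on the array, passed no test between genotypes or siRNAs. In OSK ko against wt 0 of 33 tested passed, against 0.687% of all genes tested. After siRNA 0 of 29 passed, against 0.111%, and in ko against wt cultures 0 of 33, against 0%. Over the days of culture 2 of 33 rose, Kbtbd8 by 0.13 per day (adjusted p = 0.00696) and Kbtbd7 by 0.03 (0.0485), and 8 fell. Those were Car6, Car13, Car5b, Csrnp1, Gna11, Dpp7, Ephx1 and Ephx3, between -0.13 and -0.04 per day. Car6 fell while Car4 rose, and Gna11 fell while Gna14 rose. Of all genes tested, 18% rose and 18.7% fell, and without day 11 the number of genes that passed was 0. Nothing is read from the counts of relatives, here or by family above.

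Genes with patterns most like a member were found by Pearson correlation over the 18 arrays, given here as description. Hal was most like Zmat5 (0.983) and Ranbp3 (0.974), and Ephx2 like Npl (0.960) and Grhpr (0.957). Csrnp3 was most like Ccnjl (0.950) and Bbs1 (0.918), Dpp4 like Slc19a3 (0.914) and Mtus1 (0.906), and Dnah8 like Pfkp (0.900) and Mllt6 (0.898). Srgn was most like Ntn1 (0.881) and Rtl6 (0.872). Car4 and Car2 had the weakest likeness, at best 0.861 with Fndc3c1 and 0.841 with F11r; their next genes were Gng13 (0.770) and AI662270 (0.828). Among the members, Dpp4 and Ephx2 had 0.905, and Gna14 and Dpp4 had -0.885. The 18 arrays include the OSK arrays on which the members were chosen, so these values are partly shaped by that choice.

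Markers of other cell types also differed between the OSK arrays. Of 8 fibroblast markers, 7 were lower and 1 (Twist2) higher in OSK ko than in wt, with a median of -1.02; Col3a1 read 10.40 in wt and 8.45 and 8.43 in ko. The summed linear signal of the fibroblast list was 3358 in OSK wt, 1305 to 1370 in OSK ko, 910 to 3009 in OCK ko, 13219 with siCtrl, 10013 to 10785 with siTcf3, and 69812 to 133814 in the cultures. The sum of 3009 was that of OCK ko clone 2 and was mostly carried by its collagens. In that clone Col1a1 (8.50) and Col1a2 (10.32) were above OSK wt (8.16 and 10.23). So were Thy1 (8.05 against 7.26) and Twist2 (6.49 against 5.97). Below OSK wt were Col3a1 (9.76 against 10.40), Dcn (5.76 against 6.85), and Postn and Lum, both at the floor.
By the mean of the OSK ko clones, all 8 markers of primitive endoderm, the extraembryonic layer of the early embryo, were above wt, with a median difference of 0.46 and sums of 1007 in wt, 1345 to 1802 in OSK ko and 878 to 1069 in OCK ko. For Sox17 and Sox7 the mean differences were only 0.03 and 0.05, and OSK ko clone 2 was not above wt for either. Cubn, an endocytic receptor of that layer, was at the floor in OSK wt and both OCK ko clones and 7.80 and 7.09 in the OSK ko clones. Dab2, its adaptor, was 7.49 in wt and 8.81 and 8.27 in OSK ko. The OSK clones thus differ in these lists as well as in the members. The part of any of these markers in the differences of the 10 members was not tested.
Of 6 neural markers, 1 was higher and 3 were lower in OSK ko than in wt, with a median of -0.30, sums of 1572 in OSK wt, 1215 to 1223 in OSK ko, 705 to 1525 in OCK ko and 2159 to 2225 in the partial clone, and Dcx at the floor on all 5 iPS arrays. The median difference was 0.00 for the mesoderm and 0.08 for the endothelial markers. Of trophoblast markers, 4 of 7 were at the floor on all 5 iPS arrays. The sex-linked genes Xist, Uty, Eif2s3y and Kdm5d were at the floor on all 5 iPS arrays. With siCtrl in the partial clone Xist read 6.54, Uty 7.66, Eif2s3y 8.97 and Kdm5d 9.04. With both Tcf3 siRNAs Xist was at the floor and the others stayed above it. The summed signal of the 4 genes was 200 on each iPS array and 1320 with siCtrl. It was 1042 to 1072 with siTcf3 and 1205 to 1785 in the cultures. The iPS clones thus lacked sex-linked signal that the siRNA and culture arrays carried. Its part in the comparisons between these settings was not tested.

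**Figure D5:**
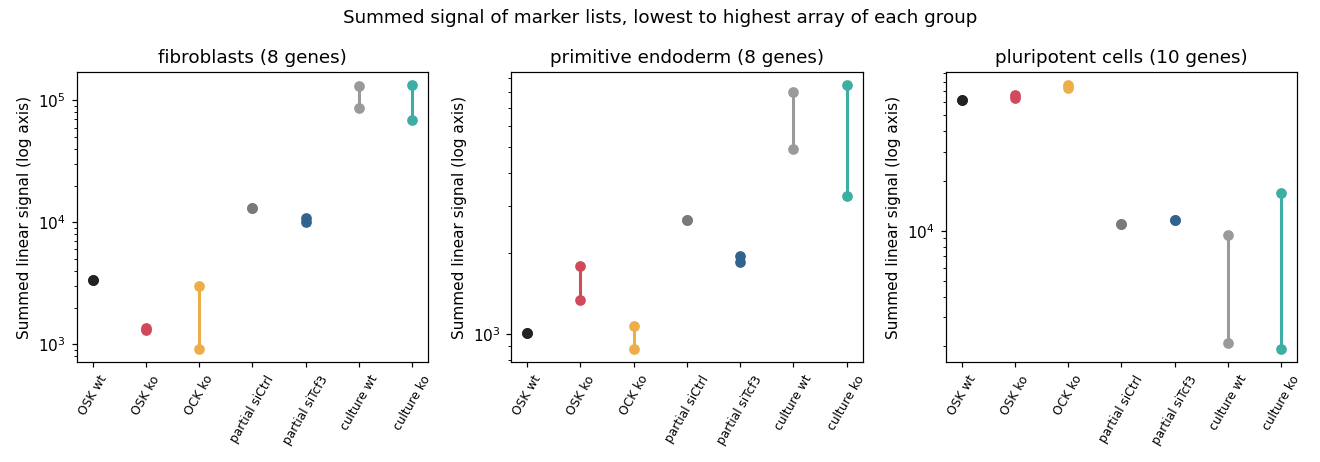
Summed linear signal (vertical axis, log scale) of markers of fibroblasts, primitive endoderm and pluripotent cells in the 7 groups of arrays; dots and the line between them are the lowest and the highest array of a group. The fibroblast sum was 3358 in OSK wt and 1305 to 1370 in OSK ko, the primitive endoderm sum was higher in OSK ko than in OSK wt, and the pluripotency sum was 61923 or more on all 5 iPS arrays.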

How the data were processed

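Each of the 18 samples has 1 Affymetrix mouse array, and its group, clone number or day was taken from the labels. The deposited values are log2 signals made by the authors with RMA, per the submitters' processing notes; version and settings: not given in the sources used here. On each array 44.9% to 46.6% of the values equalled 5.64, so low values had been set to a floor, which compresses differences of dim genes. Gene names came from the platform's annotation: of 40508 probe sets, 31076 had 1 gene symbol, 636 several and 8796 none listed. Each gene was represented by the probe set whose mean over all arrays was highest. The number of arrays limits the precision.

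Tests used limma 3.58.1 in R 4.3.3 with Benjamini-Hochberg adjustment over all genes tested and a threshold of 0.05. The siRNA difference and the relatives' OSK difference came from 1 fit of the 8 clone arrays with a mean per group, where the lone OSK wt and siCtrl arrays are assumed to vary like the pairs. In the 10 culture arrays, ko against wt was fitted with a block per day, and the change per day as the mean of a straight line per genotype. The prior variance was taken from the genes that exceeded the floor throughout a fit's arrays (prior standard deviations 0.112, 0.118 and 0.183), floored genes got at least that variance, and genes at the floor on all compared arrays were not tested. The code was tested on simulated data. Folds against a group at the floor are given as "at least". Differences between a value above the floor and a floored one are minimum sizes too.

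The members and the gene lists were chosen with earlier results of these data known. Genes named are the members, their listed relatives that passed or stand for a family, the 2 most correlated genes of each member among genes above the floor on at least 6 arrays, and the genes at the edge of the choice. Alternatives were averaged probe sets, a fit of all probe sets, quantile normalization, median centring, the plain prior, a stricter filter, leaving out arrays or days, day means, the siRNA arrays alone and a replicate block.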

Additional observations from a re-analysis of the deposited data

Results flagged for a closer look

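Within the 20 sets of 5 culture arrays (10 genes, 2 genotypes), 5 had 1 array far from the other 4 by Dixon's criterion. The usual chance rate of about 1 in 20 does not hold here, since the arrays of a set are different days and many values are at the floor: 4 of 5 for Csrnp3 in the ko cultures and 3 of 5 for Csrnp3 and Hal in the wt cultures. In the wt cultures these were Csrnp3 on day 26 (8.61), Car4 on day 11 (5.77) and Hal on day 19 (6.53). In the ko cultures they were Csrnp3 on day 22 (6.51) and Car4 on day 26 (8.18).

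In 5 cases every array of one setting moved opposite to both OSK ko clones, and the difference between the settings was not tested. Srgn was 2.19 higher in OSK ko but -0.85 in OCK ko against the same OSK wt array and -0.74 after Tcf3 siRNA. Dpp4 was 2.24 higher in OSK ko and -1.59 after siRNA, and Dnah8 2.43 higher and -0.18 after siRNA. Gna14 was -2.35 in OSK ko and 0.0806 after siRNA, a difference smaller than its SE of 0.138. For Dnah8 the siRNA difference was also smaller than its SE.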

How the results depend on the processing

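The members' count for ko against wt cultures was 0 under all alternatives run. For the change per day it was 4, 1 with the plain prior, 0 with a line through the day means, and 0 to 5 when a day was left out. For the siRNA it was 0, 2 in the fit of the 3 siRNA arrays alone, and 0 to 1 when an array was left out.

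Leaving out a day turned the sign of some small culture differences, none of them past the threshold. The ko minus wt value ranged from -0.74 to 0.0746 for Csrnp3, -0.0051 to 0.35 for Car2, -0.36 to 0.0735 for Gna14, -0.49 to 0.0426 for Srgn, -0.10 to 0.17 for Hal and -0.25 to 0.0704 for Ephx2. Without a sign change it ranged from -0.95 to -0.28 for Car4, 0.11 to 0.35 for Dnah8, -0.55 to -0.11 for Kbtbd11 and -0.61 to -0.30 for Dpp4. The change per day ranged from -0.0031 to 0.0453 for Hal and from -0.0235 to 0.0449 for Ephx2, and without a sign change from 0.02 to 0.13 for Srgn, 0.03 to 0.12 for Car2, 0.05 to 0.14 for Csrnp3, 0.09 to 0.17 for Kbtbd11 and -0.08 to -0.02 for Dpp4. The cause was not tested.

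With probe sets averaged per gene, the OSK ko minus wt difference shrank to 0.91 for Csrnp3, -1.67 for Gna14, 1.21 for Dnah8, 1.20 for Dpp4 and -0.47 for Kbtbd11; the added probe sets were at the floor, dimmer (Gna14, Dpp4) or of opposite sign (Kbtbd11). No OSK or OCK difference changed sign under any alternative run.

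With the clone number as a replicate block, 0 members and 0 genes were called for the siRNA, against 14 genes without it. Clones with the same number share only a number: the correlation of their deviations was -0.16. A crossed pairing, chosen after seeing the data, also called 0 members and 0 genes.

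Calls over all genes moved by more than 1.5 times in several settings. For the siRNA, 14 became 252 with the plain prior, 0 with the stricter filter (no floored value in the fit), 8 with median centring or probe set means, 412 in the siRNA arrays alone, and 0 to 519 when an array was left out. For the change per day, 4921 became 3171 with the plain prior, 351 with day means, and 0 to 5151 when a day was left out. One wt iPS array and 1 array per day and genotype limit every comparison.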
